A study of Mus musculus with 8 samples.

Results

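Transcript levels of 9 genes of the CC chemokine system that governs monocyte traffic, namely the ligands Ccl2, Ccl3, Ccl4, Ccl5, Ccl7, Ccl8, Ccl11 and Ccl12 and the receptor Ccr2, were set side by side in tumors of the colon from WT mice and from MDR1A KO mice. The genes were taken by name from the probe sets annotated with exactly 1 gene symbol, with the brightest probe set per gene, and they are 9 of the 22184 genes that had such a probe set. Each of the 9 had 1 probe set, so no choice between probe sets was made. The WT group held 4 tumors and the MDR1A KO group 4 tumors, 1 per mouse, from male FVB/N mice. All 8 mice had received azoxymethane (AOM), a colon carcinogen, once at 10 mg/kg when 6 weeks old, and 2.5% dextran sulfate sodium (DSS), which injures the colonic epithelium, in the drinking water for 7 days from day 0, day 21 and day 42. Tumors, classed as adenomas, were taken at day 84. MDR1A KO mice lack Abcb1a, which encodes the xenobiotic efflux pump P-glycoprotein, in the whole body, so that the loss is not limited to epithelium or leukocytes. No untreated mice were among these samples, and differences therefore concern genotype within AOM/DSS tumors only.

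Values are log2 signals from the robust multi-array average (RMA), in which a step of 1 is a doubling, and levels of different probe sets are not comparable with each other. Abcb1a lay between 8.69 and 9.46 in WT tumors and between 6.13 and 6.87 in MDR1A KO tumors, and it was lower in the knockout (log2 difference -2.67, SE 0.20) with an adjusted p = 0.00599 in limma. Array medians lay between 5.62 and 5.67. The mean of 9 epithelial markers, among them Epcam and Krt8, lay between 10.70 and 11.13 over the 8 tumors. Whole tumors were measured, and fewer cells of a type cannot be told apart from less RNA per cell.

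CC chemokines are small secreted proteins that bind G protein-coupled receptors on leukocytes and draw these cells along a gradient. CCR2 is the receptor by which classical monocytes leave the bone marrow and enter inflamed tissue, and in the inflamed colon such monocytes replenish the macrophage pool. In the mouse, CCL2, CCL7 and CCL12 are ligands of CCR2, CCL8 acts mainly through CCR8, CCL11 attracts eosinophils through CCR3, and CCL3, CCL4 and CCL5 attract monocytes, macrophages and T cells.

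By the gene order of the mouse RefSeq assembly GRCm38.p6, 5 of the ligand genes follow each other on chromosome 11 as Ccl2, Ccl7, Ccl11, Ccl12 and Ccl8. Ccl3 and Ccl4 are neighbours elsewhere on chromosome 11, which also holds Ccl5, and Ccr2 lies on chromosome 9. Promoter sequences from RefSeq (GRCm38.p6) matched 4 of the 9 genes, namely Ccl3, Ccl8, Ccl12 and Ccr2. The 250 bases before the start site are shown for Ccl12 (chr11:82101595-82101844, plus strand) and Ccl8 (chr11:82114935-82115184, plus strand), because these neighbours in 1 cluster had the largest mean differences among the 9 genes. Each run reads 5′ to 3′ in the direction of transcription, and capitals mark the TATA box motif TATAAA.
Ccl12: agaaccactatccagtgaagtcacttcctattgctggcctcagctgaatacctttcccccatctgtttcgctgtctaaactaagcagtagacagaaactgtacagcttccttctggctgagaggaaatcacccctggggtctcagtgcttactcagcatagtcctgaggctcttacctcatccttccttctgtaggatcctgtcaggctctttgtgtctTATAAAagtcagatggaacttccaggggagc
Ccl8: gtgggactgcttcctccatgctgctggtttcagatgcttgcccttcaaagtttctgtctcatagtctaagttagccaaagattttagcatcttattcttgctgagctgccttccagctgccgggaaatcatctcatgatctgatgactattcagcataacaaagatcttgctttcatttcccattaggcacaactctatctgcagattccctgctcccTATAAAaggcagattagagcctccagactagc
TATAAA, searched on both strands, was found once in each of these windows, with its first base at position -31 from the start site in Ccl12 and at -32 in Ccl8, and 12.4% of 32851 promoter windows of the same length held it. It was not found in the windows of Ccl3 and Ccr2. The AP-1 motif TGANTCA, the NF-kB motif (GGG and CC with any 5 bases between them) and the GAS motif TTCNNNGAA, searched in the same way, were found in none of the 4 windows, against 6.75%, 45.8% and 7.02% of all windows. Aligned with each other, the Ccl12 and Ccl8 windows shared 147 bases (58.8%), while the other pairs of windows shared between 51.2% and 55.2%.

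Among the CCR2 ligands, Ccl12 was the 1 that passed an unadjusted threshold, though not the adjusted one. Ccl12, which encodes MCP-5 in the mouse, was measured at 3.54, 4.78, 4.96 and 4.10 in WT replicates 1 to 4 and at 5.95, 5.66, 5.43 and 5.78 in MDR1A KO replicates 1 to 4. Every MDR1A KO tumor was above every WT tumor, and WT replicate 1 was the lowest of all. Ccl12 was higher in MDR1A KO tumors by 1.36 on the log2 scale (SE 0.28, 95% interval 0.72 to 2.0), which is 2.57-fold, with an unadjusted p = 0.000898 and an adjusted p = 0.435 over 25341 named probe sets in limma, and an exact permutation p = 0.0286, the smallest that 4 tumors against 4 allow. Adjusted p lay between 0.177 and 0.997 over the alternatives of the processing, so the difference did not pass the correction for multiple tests in any of them. Ccl12 was chosen by the study on these same samples, and its difference is not independent evidence. Its probe set was dim, with a mean of 5.02, and it lay below the array's median signal on 6 of 8 arrays.

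**Figure D1:**
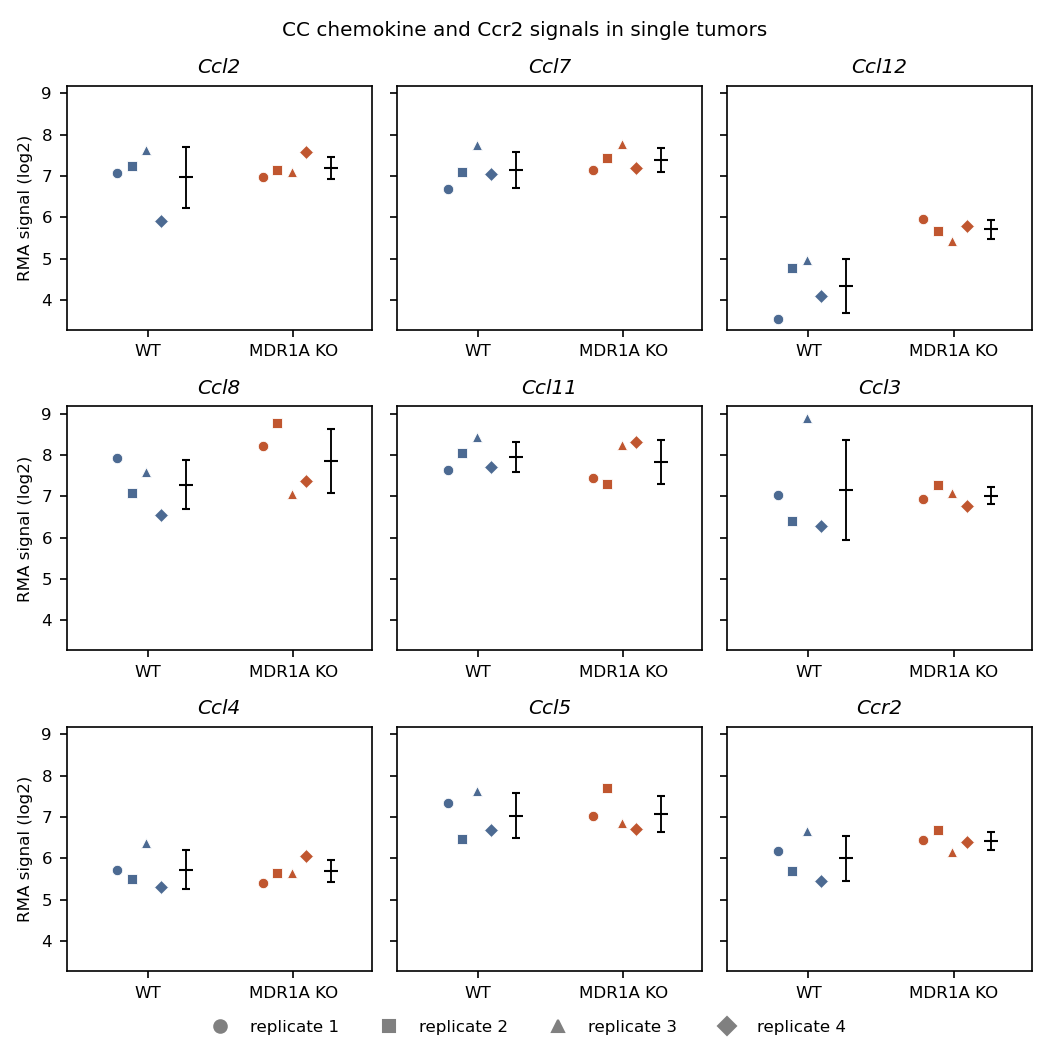
Log2 RMA signal (vertical axis) of the 8 CC ligands and Ccr2 in each of the 4 WT and 4 MDR1A KO tumors, with the mean and SD (n = 4) beside the points; the height of 1 gene is not comparable with that of another. The genotypes did not overlap for Ccl12 and overlapped for the other 8 genes.

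Ccl2, the prototypical monocyte attractant (MCP-1), was measured at 7.07, 7.23, 7.63 and 5.92 in the WT tumors and at 6.97, 7.15, 7.10 and 7.59 in the MDR1A KO tumors, in replicate order. WT replicate 4 was far below the other 7 tumors, whose genotypes were interspersed. The difference of 0.24 (SE 0.32, 95% interval -0.49 to 0.96) had an adjusted p = 0.931 in limma, and it was -0.11 without WT replicate 4. Ccl7 (MCP-3) was measured at 6.68, 7.09, 7.74 and 7.05 in WT tumors and at 7.13, 7.44, 7.77 and 7.19 in MDR1A KO tumors. WT replicate 3 lay among the highest tumors of either genotype, whereas the other 3 WT tumors lay below all MDR1A KO tumors. Ccl7 differed by 0.24 (SE 0.22, 95% interval -0.26 to 0.74) with an adjusted p = 0.889 in limma. When WT replicate 3 was left out, Ccl7 differed by 0.44 with an unadjusted p = 0.0323 and an adjusted p = 0.512 in limma.

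Ccr2 itself was measured at 6.18, 5.70, 6.67 and 5.44 in WT tumors and at 6.44, 6.69, 6.14 and 6.39 in MDR1A KO tumors. All 4 MDR1A KO tumors were above the WT median, but WT replicate 3 reached the level of the highest of them. The difference of 0.42 (SE 0.24, 95% interval -0.13 to 0.97) had an unadjusted p = 0.122 and an adjusted p = 0.833 in limma. Without WT replicate 3 it was 0.64 with an unadjusted p = 0.00878 and an adjusted p = 0.364 in limma. Ccr2, like Ccl7, thus passed the unadjusted threshold only when this tumor was left out, and neither passed the adjusted threshold even then. Leaving out WT replicate 3 also raised the named probe sets called higher from 928 to 1406. The level of Ccr2 in WT tumors had an SD of 0.54, against 0.22 in MDR1A KO tumors.

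Of the ligands that in the mouse act mainly outside CCR2, Ccl8 (MCP-2) showed the largest mean difference. Ccl8 was measured at 7.93, 7.08, 7.58 and 6.56 in WT tumors and at 8.21, 8.78, 7.07 and 7.37 in MDR1A KO tumors. MDR1A KO replicates 1 and 2 were above all other tumors, whereas MDR1A KO replicates 3 and 4 lay within the WT range. The difference of 0.57 (SE 0.40, 95% interval -0.33 to 1.47) had an adjusted p = 0.858 in limma. Ccl11 (eotaxin), the gene next to Ccl12, was measured at 7.64, 8.06, 8.43 and 7.72 in WT tumors and at 7.45, 7.29, 8.25 and 8.33 in MDR1A KO tumors. Its MDR1A KO tumors fell on both sides of the WT range's centre, with replicates 1 and 2 the lowest of the 8 tumors. Ccl11 differed by -0.13 (SE 0.27, 95% interval -0.73 to 0.47) with an adjusted p = 0.956 in limma.

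Ccl3 (MIP-1α), a product of activated macrophages, was measured at 7.04, 6.41, 8.91 and 6.28 in WT tumors and at 6.95, 7.28, 7.07 and 6.77 in MDR1A KO tumors. WT replicate 3 stood above all other tumors, and the 4 MDR1A KO tumors lay close together. Ccl3 differed by -0.14 (SE 0.50, 95% interval -1.26 to 0.98) with an adjusted p = 0.977 in limma, and by 0.44 with an unadjusted p = 0.0536 without WT replicate 3. Ccl4 (MIP-1β), its neighbour on chromosome 11 and likewise a product of activated macrophages, was measured at 5.71, 5.49, 6.38 and 5.29 in WT tumors and at 5.41, 5.64, 5.65 and 6.04 in MDR1A KO tumors. WT replicate 3 was again the highest, and WT replicate 4 the lowest. Ccl4 differed by -0.03 (SE 0.23, 95% interval -0.54 to 0.48) with an adjusted p = 0.993 in limma. Ccl5 (RANTES), which T cells and NK cells make in quantity, was measured at 7.33, 6.46, 7.64 and 6.69 in WT tumors and at 7.01, 7.69, 6.85 and 6.71 in MDR1A KO tumors. The genotypes covered nearly the same range, with MDR1A KO replicate 2 and WT replicate 3 at the top. Ccl5 differed by 0.04 (SE 0.29, 95% interval -0.61 to 0.69) with an adjusted p = 0.993 in limma.

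By count, 1 of the 9 genes (11.1%) passed an unadjusted p under 0.05 in limma, Ccl12, in the direction of MDR1A KO, against 6.40% of all 25341 named probe sets (3.66% higher and 2.74% lower). Ccl12 also passed the study's criterion, which adds a change of at least 2-fold and which 0.241% of named probe sets met. At an adjusted p under 0.05, 0 of the 9 genes passed, as did 0.0158% of named probe sets. Ccl12 was the 1 gene of the 9 whose genotypes did not overlap, against 3.72% of named probe sets (2.13% with MDR1A KO tumors higher). The mean was higher in MDR1A KO tumors for 6 of the 9 genes and lower for 3, and the median difference was 0.24, against 0.00 over all named probe sets, of which 50.3% had the higher mean in MDR1A KO tumors. The SD was larger among WT than among MDR1A KO tumors for 7 of the 9 genes, with Ccl8 and Ccl11 as the exceptions. The share of all named probe sets with the larger SD in WT tumors was not computed, so this count cannot be read as a trait of the 9 genes. The 9 genes are not independent of each other, since the same 8 tumors gave all values.

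The difference of Ccl12 was then set against that of each other ligand within the same tumor. Relative to Ccl2, Ccl12 lay between -3.53 and -1.82 in WT tumors and between -1.80 and -1.02 in MDR1A KO tumors, so the genotypes were separate by a narrow margin. The shift of this log2 ratio was 1.12 (exact permutation p = 0.0286). Relative to Ccl4 the shift was 1.39 and relative to Ccl11 it was 1.49, each without overlap (exact permutation p = 0.0286 for both). The shifts relative to Ccl3 (1.50), Ccl5 (1.32) and Ccl7 (1.12) had an exact permutation p = 0.0571, and their groups overlapped. Relative to Ccl8 the shift was 0.79 with an exact permutation p = 0.229, and 0.31 without WT replicate 1, so a difference between the responses of Ccl12 and Ccl8 was not shown. Thus 3 of 7 ratios separated the genotypes, whereas the ratio of Ccl12 to any other named probe set separated them in 90.1% of cases. The tests were 2-sided, covered 7 comparisons that share Ccl12, and could not go below 0.0286, so none would pass a correction over the 7.

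**Figure D2:**
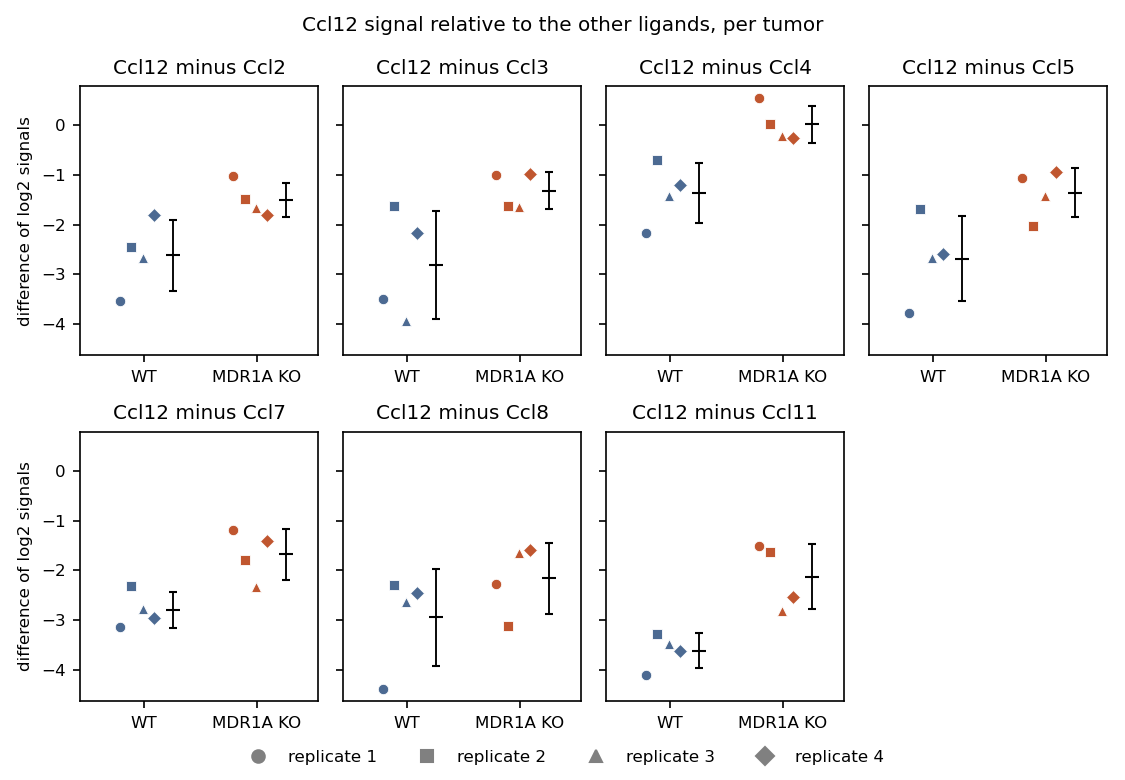
Log2 signal of Ccl12 minus that of each other CC ligand (vertical axis) in each tumor by genotype, with the mean and SD (n = 4) beside the points. The genotypes did not overlap relative to Ccl2, Ccl4 and Ccl11, and they overlapped most clearly relative to Ccl8.

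Correlations among the 9 genes were described after subtraction of the genotype mean. Over the 8 tumors 31 of 36 pairs (86.1%) had a positive correlation and 5 a negative one, against 50.3% positive among all pairs of named probe sets. Without the pair of tumors farthest from the median of a gene, 19 pairs were positive and 17 negative. Leaving out such tumors narrows the range of values, and the share among all named probe sets was not computed this way. How far the excess rested on such tumors was therefore not settled. The receptor Ccr2 followed Ccl3 (r = 0.89, exact permutation p = 0.0174; Spearman's rho 0.83, p = 0.0208) and Ccl5 (r = 0.86, exact permutation p = 0.0260; rho 0.86, p = 0.0278). Without the pair of tumors farthest from the median these were 0.62 and 0.71. Ccr2 with Ccl8 gave r = 0.73 (exact permutation p = 0.0260; rho 0.74, p = 0.0278), and 0.72 without such tumors. Ccl3 with Ccl5 gave r = 0.77 (exact permutation p = 0.0087; rho 0.81, p = 0.0174) and Ccl5 with Ccl8 gave r = 0.79 (exact permutation p = 0.0312; rho 0.69, p = 0.0868), with 0.79 and 0.72 without such tumors. These 5 pairs passed an unadjusted p under 0.05, and 0 of 36 passed after Benjamini-Hochberg adjustment, where the smallest value was 0.225 for r and 0.200 for rho. Permutations were made within genotype over all arrangements of the 4 tumors, and points of all pairs share the same arrays.

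**Figure D3:**
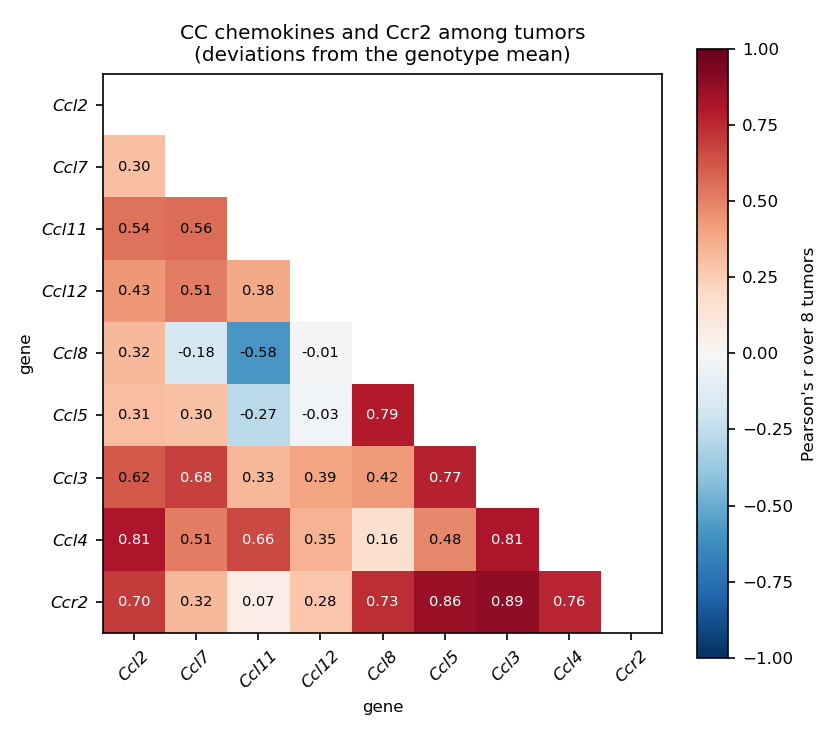
Pearson correlations between pairs of the 9 genes over 8 tumors, each value taken as the deviation from its genotype mean; the colour scale gives r. Values ran from -0.58 for Ccl8 with Ccl11 to 0.89 for Ccl3 with Ccr2.

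The correlations of Ccl12 with the other 8 genes lay between -0.03 (Ccl5) and 0.51 (Ccl7), and none passed an unadjusted p under 0.05. With Ccr2 the correlation of Ccl12 was 0.28 (exact permutation p = 0.618; rho 0.21, p = 0.613). The correlation of Ccl2 with Ccr2, 0.70 (exact permutation p = 0.175), was -0.20 without the pair of tumors farthest from the median, so its sign depended on those tumors. Across 10980 genes, with likeness measured as the Pearson correlation of deviations from the genotype mean over 8 tumors, the genes nearest to Ccr2 were Apbb1ip (0.99), Gng2 (0.99) and Pltp (0.98). Those nearest to Ccl12 were Neurl1b (0.99), Uqcrb (0.98) and Ppp1r3b (0.98), and those nearest to Ccl2 were Vgll3 (0.98), Cpne2 (0.97) and P4ha3 (0.97). With 8 tumors and so many genes, high values occur by the search itself, and these are descriptions.

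The rest of the CC system was described from a list of 11 other ligands and 13 other receptors and scavengers. Of these 24 genes, 4 were higher and 1 was lower in MDR1A KO tumors at an unadjusted p under 0.05 in limma (20.8%, against 6.40% of all named probe sets), and 0 passed the adjusted threshold. Their median difference was 0.06. Ccl17, a CCR4 ligand made by dendritic cells and macrophages, was higher by 0.78 (SE 0.23, unadjusted p = 0.00757), with WT tumors between 5.74 and 6.54 and MDR1A KO tumors between 6.32 and 7.36. Ccl22, the other CCR4 ligand, differed by 0.45 (SE 0.26, unadjusted p = 0.119). Ccl27a, a ligand of CCR10, was higher by 0.35 (SE 0.11, unadjusted p = 0.00785), and Ccl20, an epithelial ligand of CCR6, by 0.42 (SE 0.17, unadjusted p = 0.0356). Among the receptors, Ccr9, which guides lymphocytes to the gut, was higher by 0.29 (SE 0.12, unadjusted p = 0.0369). Ackr4, a scavenger of CC chemokines, was lower (log2 difference -0.39, SE 0.11, unadjusted p = 0.00557), although its signals, between 3.90 and 4.59, were dim. The genotypes did not overlap for 1 of the 13 receptors and scavengers, Ackr4, and for 0 of the 11 ligands, against 3.72% of named probe sets. Ccr10 and the CCL11 receptor Ccr3 differed by 0.19 (unadjusted p = 0.091) and 0.30 (unadjusted p = 0.158). Ccr9, Ccr10 and Ccr3 were dim as well, with means of 4.88, 5.01 and 3.81. Ccl12 thus had the largest difference of the measured CC ligands and receptors.

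**Figure D4:**
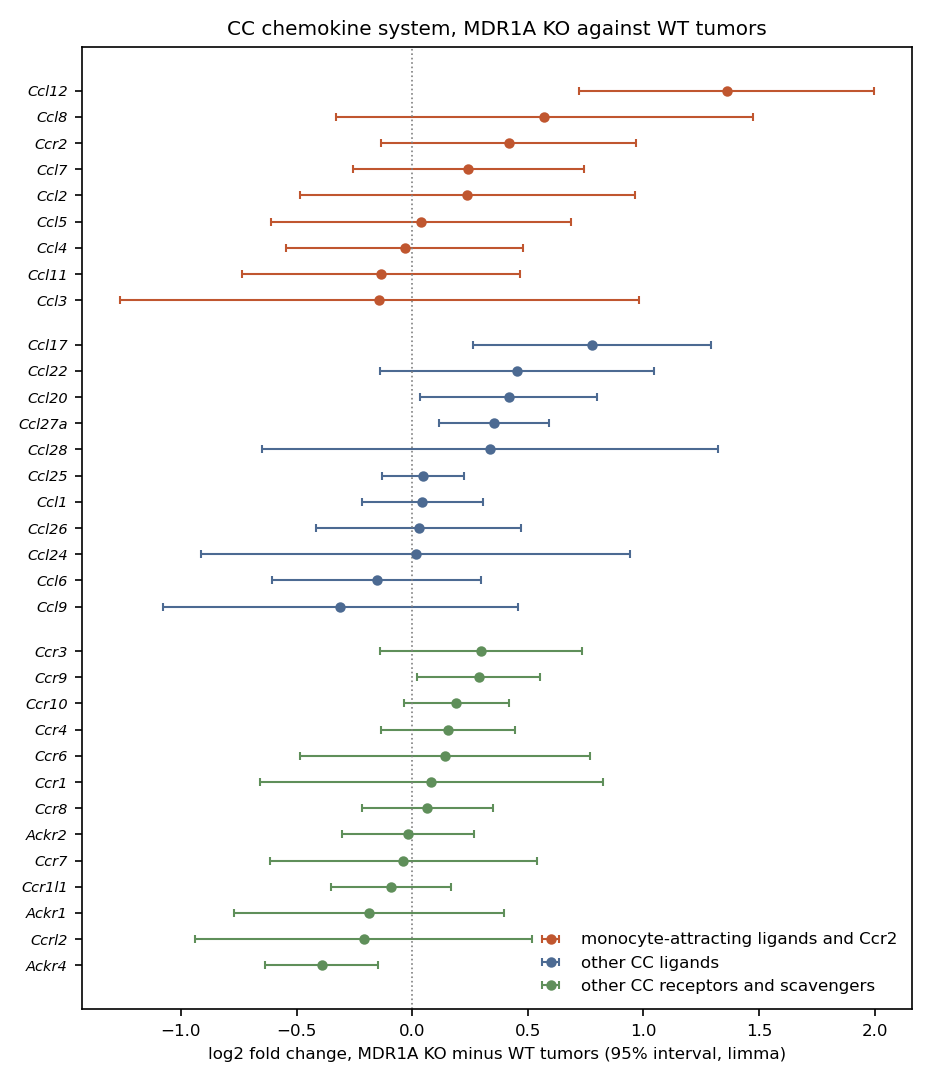
Log2 difference MDR1A KO minus WT (horizontal axis) with its 95% interval from limma (n = 4 tumors per genotype) for the 9 genes and the other measured CC ligands, receptors and scavengers. The interval of Ccl12, from 0.72 to 2.0, lay above 0, and those of the other 8 genes included 0.

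Other molecules that draw or sustain monocytes were measured by 16 genes. Of these, 4 were higher and 1 was lower in MDR1A KO tumors at an unadjusted p under 0.05 in limma. This was 31.25% of them, against 6.40% of all named probe sets, and their median difference was -0.02. Csf1, the macrophage growth factor, was higher by 0.61 (SE 0.16, unadjusted p = 0.00359). Cx3cr1, the fractalkine receptor of resident intestinal macrophages, was higher by 0.87 (SE 0.27, unadjusted p = 0.00998), with WT tumors between 6.16 and 7.60 and MDR1A KO tumors between 7.88 and 8.13. Csf2ra, the GM-CSF receptor chain, was higher by 0.37 (SE 0.10, unadjusted p = 0.00488), and Vegfa, which attracts monocytes besides acting on endothelium, was lower (log2 difference -0.45, SE 0.12, unadjusted p = 0.00511). The genotypes did not overlap for 3 of these 16 genes, Cx3cr1, Csf2ra and Vegfa, against 3.72% of named probe sets. Of 19 inducers and transducers of CC chemokine expression, 2 were higher and 2 were lower at the same threshold (21.1%), with a median difference of 0.06. Tnf, a cytokine that induces CC chemokines, was higher by 0.62 (SE 0.20, unadjusted p = 0.0137), and the AP-1 subunit Jun by 0.45 (SE 0.12, unadjusted p = 0.00416). Il6 and Il1a were lower, with log2 differences of -1.39 (SE 0.55, unadjusted p = 0.0325) and -0.44 (SE 0.19, unadjusted p = 0.0425). None of these passed the adjusted threshold. Il6 was dim, with a mean of 4.23. It lay between 3.80 and 6.89 in WT tumors and between 3.28 and 3.73 in MDR1A KO tumors.

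Markers of the cells that carry or make these molecules were read beside them. Of 14 macrophage markers, 8 were higher and 0 were lower at an unadjusted p under 0.05 in limma. This was 57.1% of the list, against 6.40% of all named probe sets. The median difference was 0.38, and none passed the adjusted threshold. The genotypes did not overlap for 3 of the 14, against 3.72% of named probe sets. Adgre1, which encodes the defining surface antigen of mouse macrophages, was higher by 0.67 (SE 0.14, unadjusted p = 0.00089), and Aif1 by 0.54 (SE 0.15, unadjusted p = 0.00511), both without overlap. The mean of the macrophage list lay between 7.62 and 8.28 in WT tumors and between 8.14 and 8.34 in MDR1A KO tumors, a difference of 0.31. Of 7 classical monocyte markers, by contrast, Ly6c2 was higher by 0.80 (SE 0.35, unadjusted p = 0.0466) and Chil3 was lower (log2 difference -0.92, SE 0.32, unadjusted p = 0.0183). The probe set of Chil3 was dim, with a mean of 3.70. The monocyte list mean lay between 7.19 and 8.27 in WT tumors and between 7.55 and 7.76 in MDR1A KO tumors. Of 8 T cell markers 1 (12.5%) was higher, Cd3g by 0.99 (SE 0.40, unadjusted p = 0.0349). The T cell list mean lay between 5.55 and 6.75 in WT tumors and between 6.23 and 6.76 in MDR1A KO tumors. WT replicate 3 had the highest WT mean of the macrophage, monocyte and T cell lists. It also had the highest WT mean of the B cell, fibroblast and endothelial marker lists, though not of the remaining lists. WT replicate 3 was the highest WT tumor for 8 of the 9 genes, all but Ccl8. The share of all named probe sets for which it was the highest WT tumor was not computed.

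For mast cells (9 markers), NK and cytotoxic cells (7), neutrophils (9), B cells (6), fibroblasts (9), endothelium (7) and eosinophils (5), 0 markers passed an unadjusted p under 0.05 in limma. The mean of the mast cell list lay between 6.68 and 8.74 in WT tumors and between 7.93 and 8.20 in MDR1A KO tumors, and that of the neutrophil list between 5.69 and 7.41 and between 6.04 and 6.62. The eosinophil list, which bears on the eosinophil attractant Ccl11, had a mean between 4.10 and 4.33 in WT tumors and between 4.09 and 4.24 in MDR1A KO tumors, below the median signal of every array. Of 9 epithelial markers 0 were higher and 2 (22.2%) were lower at this threshold, against 6.40% of all named probe sets. These were Krt20 (log2 difference -0.65, SE 0.19, unadjusted p = 0.00617) and Cdx2 (-0.65, SE 0.26, unadjusted p = 0.0307), and 0 passed the adjusted threshold. All 9 had a lower mean in MDR1A KO tumors, with a median difference of -0.17. The genotypes did not overlap for 2 of the 9, Krt19 and Krt20, against 3.72% of named probe sets. The epithelial list mean lay between 11.01 and 11.13 in WT tumors and between 10.70 and 11.06 in MDR1A KO tumors.

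**Figure D5:**
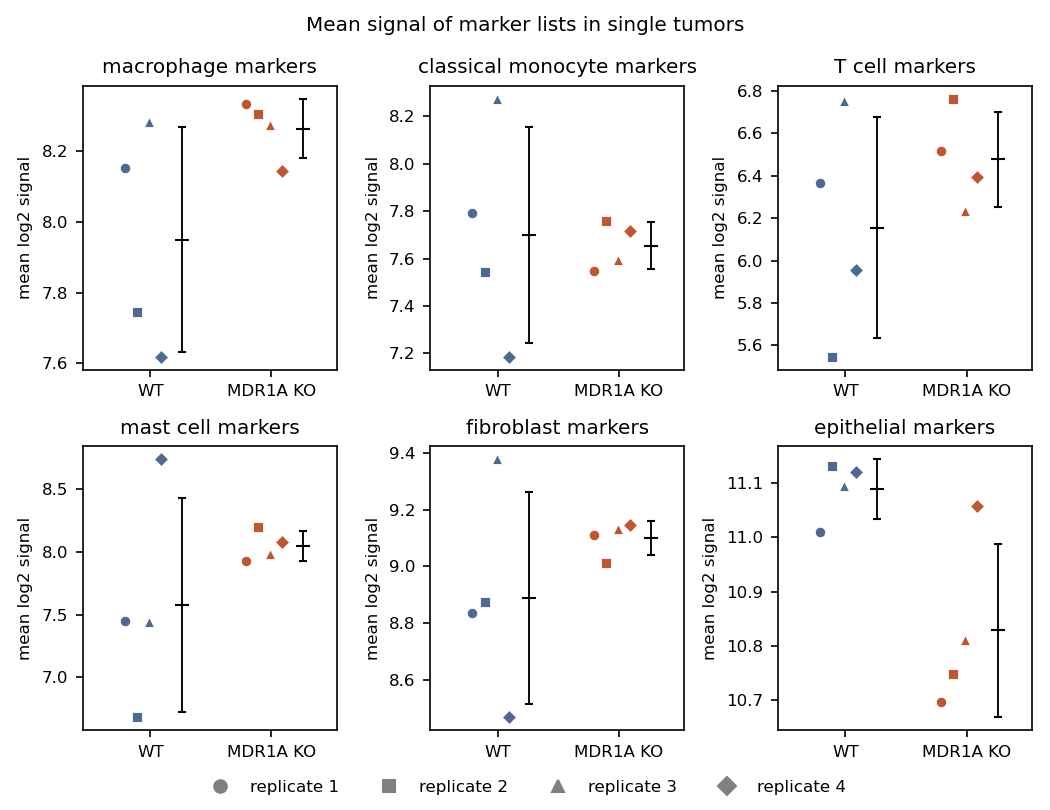
Mean log2 signal of the macrophage, classical monocyte, T cell, mast cell, fibroblast and epithelial marker lists (vertical axes, each with its own range) in each tumor by genotype, with the mean and SD (n = 4) beside the points. The macrophage list lay between 7.62 and 8.28 in WT tumors and between 8.14 and 8.34 in MDR1A KO tumors, and the epithelial list between 11.01 and 11.13 and between 10.70 and 11.06.

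Ccl12 and Ccr2 were also read relative to these list means, an alternative chosen after the data had been seen. Relative to the macrophage list, Ccl12 was higher in MDR1A KO tumors by 1.05 (exact permutation p = 0.0286), and relative to the classical monocyte list by 1.4 (exact permutation p = 0.0286), both without overlap. Ccl12 relative to any other named probe set separated the genotypes in 90.1% of cases. The lack of overlap here was therefore likely beforehand and cannot show a rise beyond that of the cell markers. Relative to the T cell list the difference was 1.04 with an exact permutation p = 0.0857, and the genotypes overlapped. Ccr2 differed by 0.10 relative to the macrophage list (exact permutation p = 0.571) and by 0.09 relative to the T cell list (exact permutation p = 0.629). Relative to the classical monocyte list Ccr2 was higher by 0.46 (exact permutation p = 0.0286) without overlap. By itself Ccr2 overlapped between genotypes (exact permutation p = 0.257), and that list had 3 markers with a higher and 4 with a lower mean. For how many named probe sets the ratio with Ccr2 separates the genotypes was not computed. This lack of overlap therefore cannot show a rise of Ccr2 beyond that of monocyte markers. The macrophage and T cell list means were themselves higher in MDR1A KO tumors, by 0.31 and 0.32. Subtracting them was therefore bound to give a smaller difference of Ccl12 than its 1.36 alone. The classical monocyte list mean was slightly lower (difference -0.04), and subtracting it was bound to give a larger one. Leaving out 1 tumor gave 0.71 to 1.26 relative to the macrophage list and 0.70 to 1.39 relative to the T cell list. The part of cell numbers in these differences was not tested.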

How the data were processed

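Tumors of 4 WT and of 4 MDR1A KO mice were each hybridized to 1 GeneChip Mouse Gene ST array. The authors deposited log2 signals from RMA, which subtracts background, normalizes arrays to a common distribution by quantiles and summarizes the probes of a set, run in Affymetrix Expression Console 1.4. Quantile normalization removes a shift shared by all genes. Tumor RNA came from either of a pair of extraction procedures, which the labels do not assign to tumors. The array annotation's genome build was not given in the sources used here.

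Of 41345 probe sets, 25341 had a symbol in the platform's annotation (23525 with 1 symbol and 1816 with several) and 16004 had none. Differences of MDR1A KO minus WT, their SE and 2-sided p were computed with limma 3.58.1 (lmFit and eBayes) in R 4.3.3 and adjusted by Benjamini-Hochberg over all 25341, with a threshold of 0.05. Single values were compared by exact permutation over the 70 arrangements of tumors. Promoters were aligned with Biopython 1.88, and other steps used matplotlib 3.10.9, scipy 1.17.1, pandas 2.3.3 and numpy 2.4.6 under Python 3.11.15. The fit was tested on simulated data. The number of arrays limits the precision.

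The 9 genes and all lists were chosen with earlier results of these data known. The lists held 160 further genes with a 1-symbol probe set, and 12 listed genes had none and are not reported here. Named were the 9 genes, Abcb1a, up to 4 genes of smallest p per list, and the 3 genes most like Ccl2, Ccl12 and Ccr2 among brighter probe sets. Epcam and Krt8 were named as examples of the epithelial list. Alternatives were the methods' t-test, trend and robust settings, array weights, all or only 1-symbol probe sets, leaving out the dimmest 33.3%, recentring, renormalization, the replicate block and leaving out each tumor.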

Additional observations from a re-analysis of the deposited data

Results flagged for a closer look

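Among 54 groups of 4 tumors over 27 measures, a single tumor stood far from the other 3 of its genotype in 2 groups, where chance alone marks about 1 in 20 groups. The log2 signal of Ccl12 minus that of Ccl8 was -4.39 in WT replicate 1 and between -2.63 and -2.30 in the other WT tumors. The mean of the NK and cytotoxic cell markers was 4.78 in WT replicate 2 and between 5.16 and 5.17 in the other WT tumors.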

How the results depend on the processing

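Ccl12 was higher in MDR1A KO tumors at an unadjusted p under 0.05 in all 16 alternatives of its fit, with log2 differences between 1.09 and 1.56, and passed an adjusted p under 0.05 in none. Without the dimmest 33.3% of probe sets Ccl12 itself was left out, and 0 of 8 remaining genes passed. At an adjusted p under 0.05, 0 of 9 passed. Leaving out 1 tumor gave 1 to 3 genes higher, with 3 (Ccl12, Ccl7 and Ccr2) without WT replicate 3, and 0 to 0 lower. The other CC genes gave 2 to 6 higher (2 without WT replicate 2) and 1 to 1 lower. All named probe sets gave 689 to 1406 higher (1406 without WT replicate 3, against 928) and 486 to 834 lower. The ratios of Ccl12 whose genotypes did not overlap, 3 of 7, became 3 to 6, with 6 without WT replicate 2 and 5 without MDR1A KO replicate 2 or 3; no overlap is easier to reach with fewer tumors, and no exact p could go below 0.0571. The correlations past adjustment stayed at 0 to 0. Differences changed sign on leaving out 1 tumor for Ccl2 (-0.11 to 0.46), Ccl3 (-0.44 to 0.44), Ccl4 (-0.17 to 0.19), Ccl5 (-0.17 to 0.24) and Ccl11 (-0.30 to 0.045). The methods' t-test gave 2 other CC genes higher in place of 4. Of all named probe sets, recentring gave 732 higher and 881 lower and renormalization 756 higher and 829 lower, against 928 and 694. Which direction held more named probe sets thus depended on the normalization. All 41345 probe sets gave 1130 lower in place of 694, and leaving out the dimmest 33.3% gave 427 of 16894 lower, with 0 of 14 other CC genes lower. The changes to 1130 and to 427 lower probe sets went with the number of probe sets tested. Ackr4, the 1 other CC gene that was lower, had a mean of 4.15 and was itself left out as dim.

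Deviations of same-numbered tumors correlated between -0.101 and 0.353, and those of tumors with different numbers between -0.319 and 0.291. These ranges overlap, so the values neither show nor exclude a pairing by replicate number. With the replicate block 1 of the 9 genes was higher (Ccl12, unadjusted p = 0.00371 and adjusted p = 0.698 in limma) and 0 were lower, 4 other CC genes were higher and 1 was lower, and for 5 of 7 ratios of Ccl12 all 4 differences between same-numbered tumors had 1 sign, which is a different criterion from the 3 ratios without overlap and no test. A further probe set was not run, since each of the 9 genes has 1. Dim signal limits what can be read from Ccl12.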
